A study of Homo sapiens with 7 samples.

Results

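The microRNAs miR-192, miR-194 and miR-215 were 3 of the 377 human microRNAs measured by TaqMan quantitative PCR in 7 tumor cell lines. They are the mature products of 2 genomic clusters, and their assays were found by name on every card. They were chosen from the measured difference between the groups described next, in which miR-192 was among the microRNAs already called, so that the values of that difference are given as a description and without a test. All 7 lines were grown from the lungs of athymic female mice that carried MDA-MB-435-GFP, an established human tumor cell line with green fluorescent protein, and were purified with G418. The 3 oligometastatic L1-R2 lines, which give few metastases, came from animals injected with L1-R1 cells, and the 4 polymetastatic L1Mic-R2 lines, which give widespread metastases, came from animals injected with L1Mic-R1 cells. Both founding lines were derived from the lung of the same animal, and each profiled line came from a distinct animal. The founding line, the order of the cards (1 to 3 for L1-R2, 4 to 7 for L1Mic-R2) and the group cannot be told apart, and 1 card was run per line, without repeats.

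The parental line was long used as a breast cancer line and is now regarded as melanoma derived. Its melanocyte-linked microRNAs were read on these cards. The threshold cycle (Ct) counts PCR cycles until a well reaches a fixed fluorescence, so that more RNA gives a lower value, by 1 cycle per doubling. The raw Ct of miR-204 was 25.79 to 26.92 over the 7 lines, and 6 of 6 melanocyte markers on the card were detected, that is, below Ct 38, in some line, and 5 in every line.

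Both clusters pair a copy of miR-194 with a member of the miR-192 family, either miR-192 or miR-215. They are abundant in liver, kidney and gut, where the hepatocyte factor HNF1 activates them, and miR-192 is known in kidney as a repressor of the ZEB transcription factors.

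The mature sequences are shown because they decide which targets the members can share. They were taken from RefSeq (GRCh38.p14), where the entries of all 3 members were matched by name as the 5p arm, and the seed (bases 2 to 8 from the 5′ end) is in capitals.
miR-192: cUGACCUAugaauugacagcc
miR-215: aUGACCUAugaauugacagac
miR-194: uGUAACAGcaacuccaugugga
The miR-192 and miR-215 sequences share the seed UGACCUA, which no other human mature sequence of the RefSeq table holds. They are identical at 19 of 21 positions. Counted from the 5′ end, the substitutions from miR-192 to miR-215 are C1A and C20A, both outside the seed. The miR-194 seed, GUAACAG, was found in no other human mature sequence of that table.

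The hairpins are shown because miR-194 is made at both clusters, so that its assay cannot tell the copies apart. The mature arm is in capitals.
MIR192: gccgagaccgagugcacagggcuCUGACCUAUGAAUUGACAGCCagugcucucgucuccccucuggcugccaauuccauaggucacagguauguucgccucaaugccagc
MIR194-2: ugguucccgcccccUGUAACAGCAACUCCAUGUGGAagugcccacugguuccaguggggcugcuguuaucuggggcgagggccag
MIR215: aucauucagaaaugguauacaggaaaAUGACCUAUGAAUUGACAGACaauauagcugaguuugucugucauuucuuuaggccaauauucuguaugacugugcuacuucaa
MIR194-1: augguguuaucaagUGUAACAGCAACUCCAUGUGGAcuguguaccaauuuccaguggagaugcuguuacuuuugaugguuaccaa
The first pair lies on the minus strand of chromosome 11 within the long noncoding RNA gene MIR194-2HG, with the mature miR-192 at chr11:64891203-64891223 and the mature miR-194 at chr11:64891404-64891425. The hairpins of that pair are 108 bases apart, and the nearer one begins 2010 bases from the start of the host gene. The second pair lies on the minus strand of chromosome 1, with the mature miR-215 at chr1:220117916-220117936 and the mature miR-194 at chr1:220118206-220118227, and its hairpins are 194 bases apart. It lies within the span of IARS2, an isoleucyl-tRNA synthetase gene on the opposite strand, and within the long noncoding RNA gene LOC124904515 on the same strand, 872 bases from its start.

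The promoters of both host genes (250 bases before to 50 after the start, RefSeq, GRCh38.p14, minus strand) are shown because 2 detected members are made from the first. Both strands were searched for the HNF1 half-site GTTAAT, and a match is in capitals.
MIR194-2HG, chr11:64893400-64893699: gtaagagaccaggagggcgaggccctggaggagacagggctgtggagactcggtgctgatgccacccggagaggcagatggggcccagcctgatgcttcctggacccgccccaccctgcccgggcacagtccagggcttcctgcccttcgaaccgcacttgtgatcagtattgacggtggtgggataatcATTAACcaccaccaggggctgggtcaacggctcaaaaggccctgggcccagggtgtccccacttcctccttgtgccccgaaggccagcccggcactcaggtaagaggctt
LOC124904515, chr1:220119064-220119363: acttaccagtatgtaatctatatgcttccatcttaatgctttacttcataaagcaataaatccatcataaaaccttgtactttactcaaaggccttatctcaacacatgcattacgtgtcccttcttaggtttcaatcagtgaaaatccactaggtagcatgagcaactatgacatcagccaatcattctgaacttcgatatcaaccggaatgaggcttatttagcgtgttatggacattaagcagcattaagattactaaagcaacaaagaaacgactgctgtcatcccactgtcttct
The MIR194-2HG promoter held 1 match to the HNF1 half-site on the opposite strand, starting at base 191 of the printed window. The LOC124904515 promoter held no match. Of 35116 promoters of the same length, 6.88% held the HNF1 half-site.

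miR-192 was detected in all 7 lines and was the member read earliest. Its raw Ct was 28.96 in line 4T, 29.15 in line 3T and 28.68 in line 8T of L1-R2. In L1Mic-R2 it was 31.05 in line 2T, 30.42 in line 3T, 30.11 in line 7T and 31.07 in line 8T. Every L1Mic-R2 line was thus later than every L1-R2 line, and 0.97 cycles separated the groups at their nearest lines. The means were 28.93 ± 0.24 (SD, n = 3) and 30.67 ± 0.48 (SD, n = 4). The 4 wells of the abundant small RNA U6 differed within a card by an SD of 0.027 to 0.098 cycles. That spread leaves out error between cards, which was not measured, and U6 is read far earlier than miR-192. From line to line, raw U6 varied over a range of 0.80 cycles. The ranges of the small nucleolar RNAs RNU44 and RNU48 were wider, at 2.29 and 2.16 cycles. After quantile normalization, which gives every card the same distribution of Ct, the means of miR-192 were 29.09 ± 0.16 (SD, n = 3) and 30.59 ± 0.40 (SD, n = 4). The log2 difference, L1Mic-R2 minus L1-R2, was -1.51 (standard error 0.26), a level 2.84-fold lower in L1Mic-R2, beside a median of 0.06 over the 181 microRNAs tested. Of those, 15 had a lower difference. In these bulk samples, fewer cells with miR-192 and less of it per cell cannot be told apart.

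miR-194 was also detected in all 7 lines, later than miR-192 in each of them. The raw Ct in L1-R2 was 31.90 in line 4T, 31.72 in line 3T and 30.86 in line 8T. In L1Mic-R2 the raw Ct was 32.55 in line 2T, 32.17 in line 3T, 32.50 in line 7T and 33.87 in line 8T. The L1Mic-R2 lines were again all later, but only 0.28 cycles separated the groups, less than the spread within either of them. The means were 31.49 ± 0.55 (SD, n = 3) and 32.77 ± 0.75 (SD, n = 4). After quantile normalization they were 31.68 ± 0.52 (SD, n = 3) and 32.58 ± 0.54 (SD, n = 4), with a gap of 0.05 cycles. The log2 difference was -0.90 (standard error 0.39), a level 1.87-fold lower in L1Mic-R2, and 28 of the 181 microRNAs tested had a lower one.

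miR-215, which has the seed of miR-192, was below Ct 38 in 0 of the 7 lines. Line 4T of L1-R2 gave a Ct of 39.39 and line 3T of L1Mic-R2 a Ct of 38.39. The other 5 wells were Undetermined, which the deposited files give as 40. One line with a Ct was in each group, so that no order of the groups can be read from them. miR-215 did not pass the filter of a Ct below 38 in at least 3 lines, and no difference was fitted for it under that filter.

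**Figure D1:**
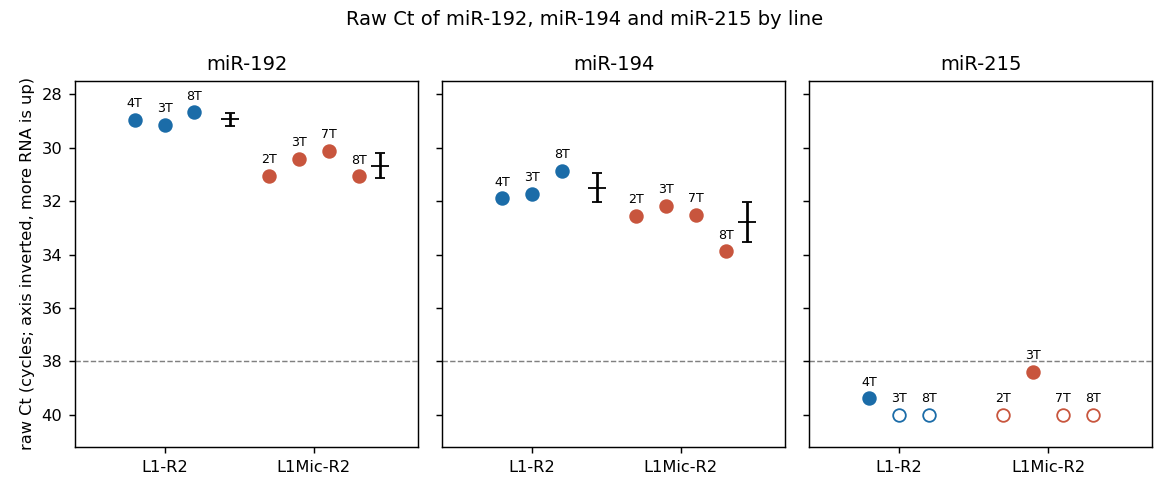
Raw Ct in cycles (inverted axis, more RNA is up) of each line, labelled by its number, for miR-192, miR-194 and miR-215. Bars are the mean ± SD of 3 L1-R2 or 4 L1Mic-R2 lines, open circles are Undetermined wells set at 40, and the dashed line is the detection limit of 38. The groups do not overlap for miR-192 and miR-194, and all miR-215 wells lie past the limit.

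An unlabelled column of the deposited files gives for each well a value that is below the PCR threshold of 0.3 in every Undetermined well and above it in every well with a Ct. It is called the end value here, and its unit is not given. The miR-215 wells that were Undetermined lay between the plant control ath-miR159a and the threshold, nearer to the threshold in L1-R2 than in L1Mic-R2. In L1-R2 the end value was 0.264 for line 3T and 0.259 for line 8T. In L1Mic-R2 it was 0.146 (2T), 0.173 (7T) and 0.169 (8T). The wells with a Ct had 0.323 in L1-R2 line 4T and 0.377 in L1Mic-R2 line 3T. In each line where it was Undetermined, the miR-215 well exceeded at least 93.8% of the other Undetermined wells of its card. ath-miR159a, which has no target in human cells, had end values of 0.023 to 0.086 and was Undetermined in all 7 lines. By comparison the end values were 2.03 to 2.65 for miR-192 and 1.31 to 2.37 for miR-194. The miR-215 values of the groups overlapped, their means being 0.282 ± 0.036 (SD, n = 3) and 0.216 ± 0.108 (SD, n = 4).

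**Figure D2:**
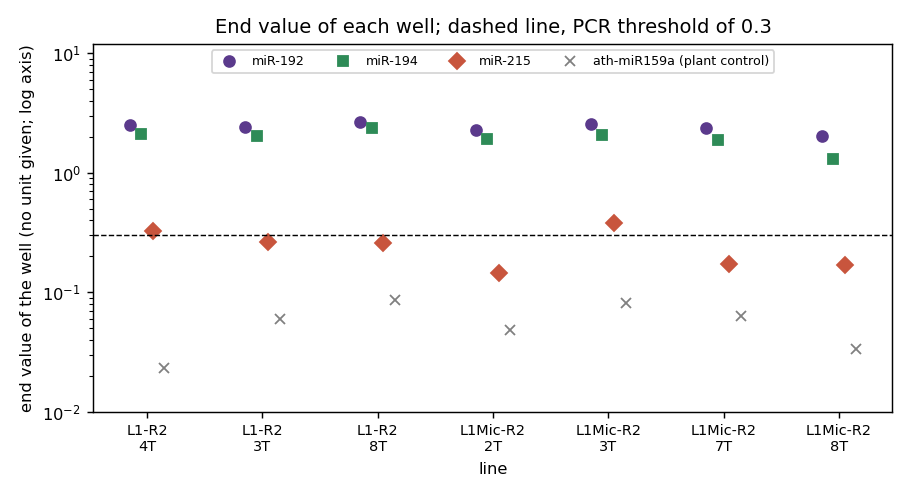
End value of the well (log axis, no unit given) in each of the 7 lines for miR-192, miR-194, miR-215 and the plant control ath-miR159a. The dashed line is the threshold of 0.3, and the miR-215 points lie between 0.146 and 0.377, above the control in every line and below miR-192 and miR-194.

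The contrast that served to choose the members is described by how often any microRNA passed in it. With limma and Benjamini-Hochberg adjustment over the 181 microRNAs tested, 9 (4.97%) had an adjusted p under 0.05, and 3 (1.66%) of them were lower in L1Mic-R2. miR-192 was 1 of those 3, and miR-194 was not among them. The call of miR-192 was kept in 1 of the 7 fits that only left out a line and in 8 of 13 other alternatives. Among those 8 is 1 added once the values were seen, relative to RNU44 and RNU48 and without L1-R2 line 4T. The L1-R2 and L1Mic-R2 values did not overlap for 35 (19.3%) of the microRNAs tested, 19 (10.5%) of them lower in L1Mic-R2, and miR-192 and miR-194 were both among the latter. On raw Ct, 25 (13.8%) were lower without overlap, again with both members. Since the members were taken from this contrast, nothing is read from these counts.

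**Figure D3:**
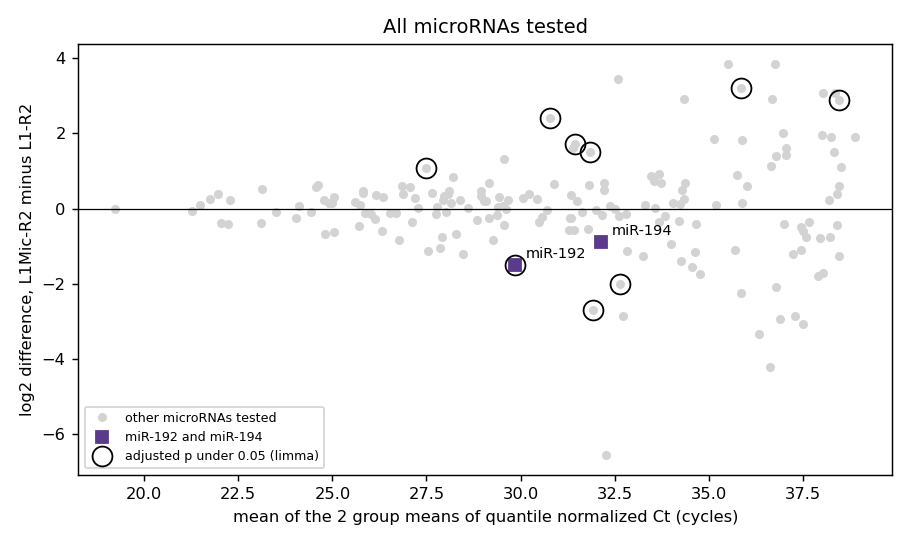
Each point is 1 of the 181 microRNAs tested, at its mean quantile normalized Ct (cycles, horizontal) and its log2 difference, L1Mic-R2 minus L1-R2 (vertical). Squares mark miR-192 at -1.51 and miR-194 at -0.90, and rings the 9 microRNAs with an adjusted p under 0.05.

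The size of the difference depended on the reference RNA, whereas its sign was negative under each normalization tried. For miR-192 the log2 difference was -1.74 on raw Ct, -1.68 relative to U6 and -1.50 relative to the mean over microRNAs that every line expressed. For miR-194 the same values were -1.28, -1.23 and -1.05, and relative to that mean the groups of miR-194 overlapped by 0.01 cycles. Relative to the small nucleolar RNAs RNU44 and RNU48 the difference of miR-192 was -0.93 and that of miR-194 -0.48, and the groups of both overlapped. The median over all microRNAs tested stood at 0.56 under that normalization, and miR-192 lay -1.49 and miR-194 -1.04 from it. These distances are the same by construction on raw Ct and relative to U6 or to the mean. Such references shift all microRNAs of a line alike, so that nothing is read from the distances. The overlap of miR-192 came from L1-R2 line 4T. Its Ct of miR-192 less that of RNU44 and RNU48 was 7.72, against 6.18 and 6.10 in the other L1-R2 lines and 7.43 to 7.80 in the L1Mic-R2 lines. In that line RNU48 was read at a raw Ct of 18.81 and RNU44 at 23.67, against 20.07 to 20.97 and 24.82 to 25.97 in the other 6 lines. In a fit without line 4T, added once the values were seen, the difference relative to RNU44 and RNU48 was -1.46 for miR-192 and -1.19 for miR-194.

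**Figure D4:**
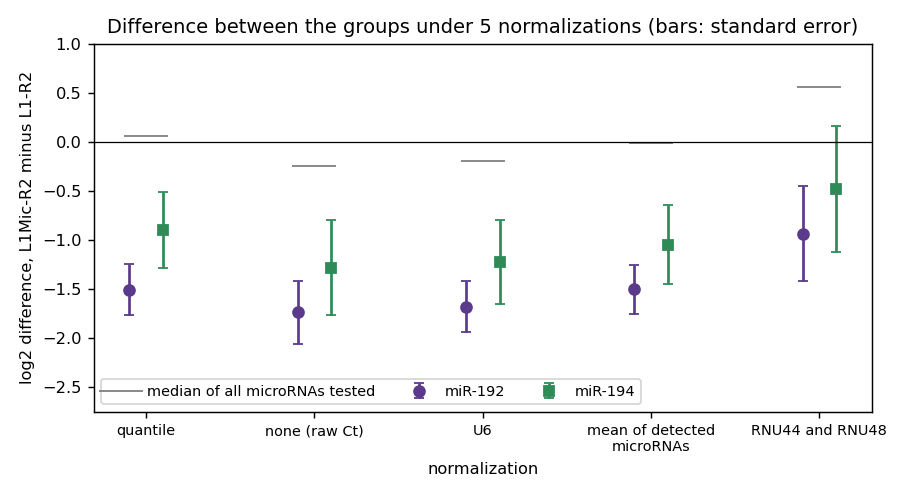
Log2 difference, L1Mic-R2 minus L1-R2, of miR-192 and miR-194 under 5 normalizations, with standard errors from the limma fit of 3 against 4 lines, and the median of the 181 microRNAs tested as a grey bar. All values of both members are below 0 and below the median, and those relative to RNU44 and RNU48 are the smallest in size. Except under quantile normalization, the distance of a member from the median is the same by construction.

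The 2 detected members were also compared line by line. The Ct of miR-194 less that of miR-192 is given within a line, where the amount of RNA cancels, although differences between the assays remain in it. In L1-R2 it was 2.94 cycles (4T), 2.57 cycles (3T) and 2.19 cycles (8T). In L1Mic-R2 it was 1.50 cycles (2T), 1.75 cycles (3T), 2.39 cycles (7T) and 2.80 cycles (8T). The groups overlapped, with means of 2.56 ± 0.37 (SD, n = 3) and 2.11 ± 0.59 (SD, n = 4). Within L1Mic-R2 the order of the lines depended on the normalization. On raw Ct line 8T was the latest for both members and line 2T came next for both. After quantile normalization line 2T had the highest Ct of miR-192, 31.16, and the lowest of miR-194, 32.25, while line 8T had the highest of miR-194, 33.39.

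Over the 7 lines the normalized Ct of miR-192 and miR-194 had a Pearson r of 0.677 (Spearman rho 0.764). The points share their cards, and they fall into the groups. As deviations from the group means the r was 0.075, and it was 0.233 over the 5 lines left when the 2 farthest from the median of miR-192 (L1-R2 lines 3T and 8T) were dropped. On raw Ct the r was 0.850 (rho 0.929), and under the other normalizations, to control RNAs or to a mean, it was 0.786 to 0.831. Of the 133 other microRNAs detected in all 7 lines that varied after normalization, miR-194 ranked 22 by likeness to miR-192, and miR-192 ranked 11 by likeness to miR-194.

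After quantile normalization the microRNAs most like miR-192 were miR-181a (r = 0.944), miR-425 (r = 0.941) and miR-29c (r = 0.936). The groups did not overlap for any of them, with log2 differences of -1.998 (standard error 0.32), -1.22 (0.30) and -0.48 (0.14). Over the 181 microRNAs tested, 35 (19.3%) did not overlap. Since these 3 were picked by likeness to miR-192, which was chosen on this contrast, nothing is read from their separation. Those most like miR-194 were miR-200b (r = 0.936), miR-30c (r = 0.858) and miR-138 (r = 0.844), over the same 7 lines. On raw Ct the melanocyte marker miR-204 ranked first for miR-192 (r = 0.974, rho = 0.964), ahead of miR-181a (r = 0.966) and miR-425 (r = 0.960), and miR-200b was again first for miR-194 (r = 0.930). The median r with miR-192 over the microRNAs compared was 0.348 on raw Ct and -0.110 after normalization. With miR-194 it was 0.387 and -0.138. As deviations from the group means, the r of miR-200b with miR-194 was 0.870 (rho 0.595), whereas none of the 3 named for miR-192 was among the 3 most like it.

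**Figure D5:**
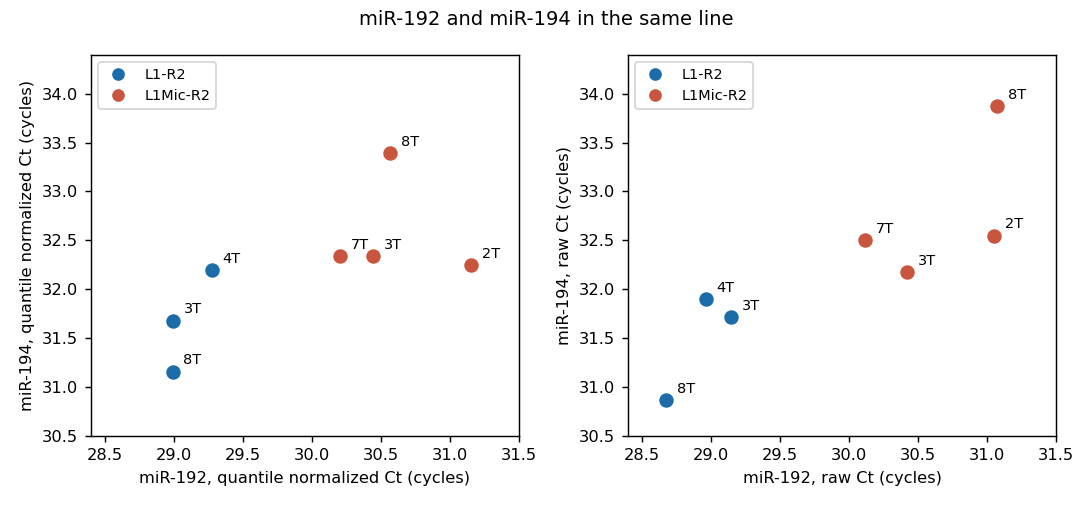
Ct in cycles of miR-192 (horizontal) and miR-194 (vertical) in each line, labelled by its number, after quantile normalization on the left and raw on the right. The L1-R2 and L1Mic-R2 lines form separate groups along miR-192, and within L1Mic-R2 line 2T has the highest normalized miR-192 and the lowest normalized miR-194.

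The tissues in which the miR-192 clusters are abundant were represented by epithelial and liver microRNAs. Of 10 on the card 4 were tested, and limma called 0, with 1 at an unadjusted p under 0.05. Of all 181 microRNAs tested it called 9 (4.97%), with 35 at an unadjusted p under 0.05. The methods' t-test, which the paper describes for the patient samples and not for these lines, was also run. It gave 1 at their unadjusted threshold and 0 after Benjamini-Hochberg adjustment. The 4 of the list that were tested were miR-200a, miR-200b, miR-200c and miR-429, so that no liver microRNA was among them. Their median log2 difference was -1.33, and all 4 were below the median of all microRNAs tested. For miR-200a and miR-429 the difference rests in part on the 40 assigned to Undetermined wells. miR-122, a liver microRNA, had a Ct below 38 in L1-R2 line 8T alone, at 36.07. miR-885-5p of the same list had one in L1Mic-R2 line 2T alone, at 37.32. miR-200c was at 34.02, 30.10 and 33.27 in L1-R2 and at 34.53, 34.30, 32.40 and 35.46 in L1Mic-R2, so that the groups overlapped, with a log2 difference of -1.28 (standard error 1.22, adjusted p = 0.61). miR-200b, which was the most like miR-194, was at 34.20, 32.86 and 32.57 in L1-R2 and at 35.03, 35.02, 34.17 and 36.76 in L1Mic-R2. The groups overlapped at L1-R2 line 4T, and the log2 difference was -1.39 (standard error 0.49, adjusted p = 0.18). The summed level is log2 of the sum of 2 to the power of 40 minus raw Ct, over members below Ct 38. For this list it ranged from 7.36 to 10.3 in L1-R2 and from 5.35 to 8.30 in L1Mic-R2.

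Markers of cell types were also compared between the groups, and their part in the differences of miR-192 and miR-194 was not tested. All 6 melanocyte markers tested were below the median of all microRNAs. Their summed level, taken from raw Ct, was 15.0 to 15.6 in L1-R2 and 13.9 to 14.7 in L1Mic-R2, without overlap. On raw Ct, 25 (13.8%) of the 181 microRNAs tested were lower in L1Mic-R2 without overlap. After quantile normalization limma called 1 marker, miR-509-3-5p, lower, with a log2 difference of -2.71 (standard error 0.53, adjusted p = 0.039). It was called in no fit that left out a line. The methods' t-test gave 4 markers at their unadjusted threshold and 0 after adjustment. Over all 181 microRNAs tested it gave 35 and 0, and limma called 9 (4.97%). For miR-204 the difference was -0.59 (standard error 0.22, adjusted p = 0.21) and for miR-508-3p -0.83 (standard error 0.21, adjusted p = 0.082). miR-211 had the lowest difference of all microRNAs tested, -6.57 (standard error 2.97, adjusted p = 0.27), with overlapping groups. In L1Mic-R2 it was Undetermined in lines 2T and 8T and at a raw Ct of 29.00 in line 7T. The groups also overlapped for miR-510, at -0.95 (standard error 0.99, adjusted p = 0.65).

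Endothelial miR-126 was higher in every L1Mic-R2 line, at a raw Ct of 28.71 to 32.41 against 32.46 to 35.06 in L1-R2, with a log2 difference of 3.44 (standard error 0.98), which limma did not call (adjusted p = 0.10). Over all 181 microRNAs tested, limma called 9 (4.97%), with 35 at an unadjusted p under 0.05, and the methods' t-test gave 35 and 0. Of 6 blood cell markers on the card 2 were tested and 0 called by limma, with 1 at an unadjusted p under 0.05. For them the methods' t-test gave 0 at their unadjusted threshold and 0 after adjustment. Their summed level, from raw Ct, was 5.64 to 6.91 in L1-R2 and at most 5.52 in L1Mic-R2, where 1 line had no marker below Ct 38. miR-451, the erythrocyte marker, was Undetermined in all 7 lines. miR-150 had a log2 difference of -3.35 (standard error 1.31, adjusted p = 0.22) and miR-223 of 3.07 (standard error 1.26, adjusted p = 0.25). Of 3 muscle markers on the card 0 were tested. miR-1 had a Ct of 33.42 in L1-R2 line 8T and was Undetermined elsewhere. miR-133a was detected in both groups, at 36.71 (8T of L1-R2) and at 35.57 (7T of L1Mic-R2). Its wells in 3T and 8T of L1Mic-R2 were past the limit, at 38.51 and 38.96, and the rest were Undetermined. No muscle marker was below Ct 38 in 2 L1-R2 and 3 L1Mic-R2 lines. Of 6 fibroblast markers on the card 5 were detected in no line, and miR-199a-3p, the 1 tested, was not called by limma, with a log2 difference of 0.39 (standard error 1.52, adjusted p = 0.90).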

How the data were processed

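MicroRNA was measured with TaqMan Human MicroRNA Array A cards in 3 L1-R2 and 4 L1Mic-R2 lines, from 30 ng of total RNA per line. The authors deposited raw and average Ct values, on a log2 scale in cycles, before quantile normalization, with the standard error of U6 over its 4 wells and an unlabelled end value of each well, an other quantity without a stated unit. Undetermined wells have an average Ct of 40. Groups and line numbers follow the labels. The file names exchange the numbers of 3T and 4T in L1-R2, and the labels mention SYBR and the mammary fat pad where the methods describe TaqMan assays and tail vein injection.

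Ct values of 381 assays were quantile normalized over all cards by limma (version 3.58.1, R 4.3.3). The 181 microRNAs below Ct 38 in at least 3 lines were compared on 40 minus Ct with lmFit and eBayes and Benjamini-Hochberg adjustment, and the fit was tested on simulated data. Each line had 160 to 184 microRNAs below Ct 38, and precision is limited by having 3 cards against 4. With 1 card per line, variation among lines and error of measurement are not separable. The microRNAs named are the members, U6, RNU44 and RNU48, the 3 most like each detected member by Pearson r, and of each list up to 2 with the lowest mean Ct and any called. Some lists examined are not reported here. miR-122, miR-200a, miR-211, miR-429, miR-451 and miR-510 were named after their values were seen. The members, lists and tests were chosen with earlier results of these data known. Alternatives were other normalizations, Ct limits, filters and fits, a replicate block and leaving out each line. By the labels, 3T and 8T are numbers used in both groups.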

Additional observations from a re-analysis of the deposited data

Results flagged for a closer look

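Of 35 quantities examined over the 4 L1Mic-R2 lines, 4 had a line whose gap to its neighbor passed Dixon's critical share of the range, as chance gives in about 1 of 20. Line 8T had a normalized Ct of 33.39 for miR-194, against 32.34 in its nearest neighbor. Line 3T had an end value of 0.377 for miR-215, against 0.173 in the nearest. In line 7T miR-429 was read at a raw Ct of 35.20, where the other 3 lines were Undetermined, and miR-223 was Undetermined, at 40, against 36.07 in the nearest, so that both of these rest on the value assigned to Undetermined wells.

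The end values of miR-215 lie outside the Ct comparison. In the 5 lines where miR-215 was Undetermined, they were 0.264 for 3T and 0.259 for 8T of L1-R2, and 0.146 for 2T, 0.173 for 7T and 0.169 for 8T of L1Mic-R2. Each was above the highest end value of ath-miR159a, 0.086, and below the threshold of 0.3.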

How the results depend on the processing

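The log2 differences of miR-192 and miR-194 were negative under all alternatives, from -1.74 to -0.93 and from -1.45 to -0.48, and from -1.65 to -1.34 and from -1.17 to -0.63 when 1 line was left out. They moved by more than the spread between lines in 1 case each, miR-192 to -0.93 relative to RNU44 and RNU48, and miR-194 to -1.45 with a replicate block by the label numbers, and the cause was not tested. miR-215 entered a fit without the detection filter alone, where its mean Ct differed by -0.53 cycles (L1Mic-R2 minus L1-R2), a value set by 2 wells with a Ct and the assigned 40.

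The number of microRNAs called, 9, fell to 0 relative to RNU44 and RNU48 (4 without L1-R2 line 4T, an alternative chosen after seeing the data), without a detection filter, with a replicate block by either set of numbers and by the methods' t-test after Benjamini-Hochberg adjustment, where 35 to 42 microRNAs, or 19 and 27 with the block, had an unadjusted p under 0.05. It rose to 14 among microRNAs detected in all 7 lines and to 21 with trend and robust limma, and ran from 0 to 4 when 1 line was left out. The cause was not tested. The numbers are not taken as pairs, since same-numbered lines deviated with r of -0.04 (3T) and -0.20 (8T), by file numbers 0.02 and -0.20.

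The 1 melanocyte call became 0 on raw Ct, relative to RNU44 and RNU48 (also without line 4T) or to the mean of detected microRNAs, at a Ct limit of 35, without a filter, with either replicate block, by the methods' t-test after adjustment (4 at their unadjusted threshold), and over all leave-one-out fits (0 to 0). It became 2 among microRNAs detected in all 7 lines and 3 with trend and robust limma, where 1 endothelial marker was called too. Blood cell calls ran from 0 to 1 when 1 line was left out, 1 without L1Mic-R2 line 7T. The epithelial and liver, muscle and fibroblast lists had 0 calls throughout.

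The r of miR-192 with miR-194, 0.677, was 0.850 on raw Ct, 0.831 relative to U6, 0.786 relative to RNU44 and RNU48, 0.789 relative to the mean, 0.075 as deviations from group means, and 0.528 to 0.824 when 1 line was left out. A Ct past 38 carries little order, which limits miR-215.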
